A study of Rhodotorula toruloides with 2 samples.

Results

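The genes described here are an alkaline phosphatase, acid phosphatases, a phytase and a PHO81 homologue of Rhodotorula toruloides, a lipid-storing basidiomycete yeast that the series title calls Rhodosporidium toruloides. They were chosen by gene identifier, as the genes of the authors' deposited table whose KEGG description names an alkaline phosphatase, an acid phosphatase, a 3-phytase or the cyclin-dependent kinase (CDK) inhibitor PHO81, and they number 7 of the 1402 genes in that table. Wild-type cells of strain AS 2.1389 were grown in chemostats, continuous cultures in a stirred tank at a constant working volume of 2.0 litre, with inorganic phosphate (Pi) limiting or replete, and RNA from 40 ml of culture was sequenced. There was 1 Pi-limited-labelled library and 1 Pi-replete-labelled library, so the spread between cultures was not measured, no difference has a replicate check and no test of the conditions was possible. Per the series title, the study addressed lipid accumulation brought on by phosphate limitation, and for the genes described here the comparison asks how their transcripts differ with Pi supply.

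Yeasts release Pi from organic phosphate with phosphatases, and take it up with dedicated transporters. In Saccharomyces cerevisiae the main repressible acid phosphatase is secreted to the cell wall space, the repressible alkaline phosphatase sits in the vacuole, and PHO81 inhibits the cyclin and kinase pair PHO80 and PHO85 when Pi is short, which lets the transcription factor PHO4, with its partner PHO2, switch these genes on. Phytases are phosphatases that release Pi from phytate, the storage phosphate of plant seeds. In S. cerevisiae the acid and alkaline phosphatase genes of this pathway and PHO81 itself respond to Pi shortage with higher transcript levels.

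In these data 6 of the 7 genes were lower, not higher, in the Pi-limited-labelled library than in the Pi-replete-labelled library. This direction ran against the labels as the pathway is known from S. cerevisiae. The sample description and the file's column name for the Pi-limited-labelled library also hold the word control. The libraries are named by their labels throughout, and none was moved to the other condition. Whether the labels are exchanged cannot be told from the labels and counts used here. Depth was similar, with recovered totals of 5892590 counts (Pi-limited-labelled) and 5641377 counts (Pi-replete-labelled). Every gene in the table differed at least 2-fold between the libraries, since no absolute log2 ratio was under 1.0003, and the largest false discovery rate (FDR) in the authors' deposited table was 9.75e-04. That the 7 genes differ at least 2-fold is therefore fixed by the table. Over all 1402 genes, 41.7% were lower and 58.3% higher by at least 2-fold in the Pi-limited-labelled library. Levels are given in RPKM, which scales counts by gene length and library total, ratios compare counts divided by library totals, and all 95% intervals (exact, from the Poisson or the conditional binomial distribution) cover counting error only.

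The alkaline phosphatase, RHTO_03053, had the largest ratio of the 7 genes. It had 9 counts in the Pi-limited-labelled library, against 692 counts in the Pi-replete-labelled library. Its level was 0.751 RPKM (95% interval 0.343 to 1.43) in the Pi-limited-labelled library and 60.3 RPKM (55.9 to 65.0) in the Pi-replete-labelled library. The counting intervals of the 2 libraries were far apart, although some distance is built in by the table's 2-fold limit and low FDR. Ordered by RPKM from high to low among the 1402 listed genes, it stood at place 1342 in the Pi-limited-labelled library and at place 350 in the Pi-replete-labelled library. The log2 ratio of the Pi-limited-labelled library over the Pi-replete-labelled library was -6.33 (-7.46 to -5.39), or 80.3-fold lower (42.1 to 176). This placed it at position 27 among the 585 genes that were lower in the Pi-limited-labelled library. It was the only one of the 7 genes to be at least 16-fold lower, which held for 5.42% of all listed genes.

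The 4 genes described as acid phosphatases alone were all lower in the Pi-limited-labelled library, by amounts that differed among them. RHTO_07386 had 16 counts, or 1.42 RPKM (0.813 to 2.31), in the Pi-limited-labelled library, against 138 counts, or 12.8 RPKM (10.8 to 15.1), in the Pi-replete-labelled library, and was 9.01-fold lower (5.35 to 16.2). RHTO_01362 had 17 counts, or 1.77 RPKM (1.03 to 2.84), in the Pi-limited-labelled library and 81 counts, or 8.81 RPKM (7.0 to 11.0), in the Pi-replete-labelled library, and was 4.98-fold lower (2.92 to 8.96). RHTO_07160 had 17 counts, or 1.88 RPKM (1.09 to 3.01), in the Pi-limited-labelled library and 74 counts, or 8.54 RPKM (6.71 to 10.7), in the Pi-replete-labelled library, and was 4.55-fold lower (2.66 to 8.22). In the Pi-limited-labelled library the counting intervals of these 3 genes overlapped each other. In the Pi-replete-labelled library the interval of RHTO_07386, from 10.77 RPKM, lay only just above that of RHTO_07160, which ended at 10.72 RPKM. It overlapped that of RHTO_01362, which ended at 10.96 RPKM. In none of the 3 did the intervals of the 2 libraries overlap. The table's 2-fold limit and low FDR make this likely for any listed gene, and the share over all listed genes was not computed.

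The other acid phosphatase, RHTO_04431, was the most abundant of the acid phosphatases per length in both libraries and had the smallest ratio. It had 107 counts, or 12.5 RPKM (10.2 to 15.1), in the Pi-limited-labelled library, against 236 counts, or 28.8 RPKM (25.3 to 32.7), in the Pi-replete-labelled library, which is 2.30-fold lower (1.83 to 2.92). Its log2 ratio was -1.20 (-1.55 to -0.87), close to the table's 2-fold limit. If the libraries were scaled to equal totals over the listed genes, it would be -0.89 and pass under that limit.

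**Figure D1:**
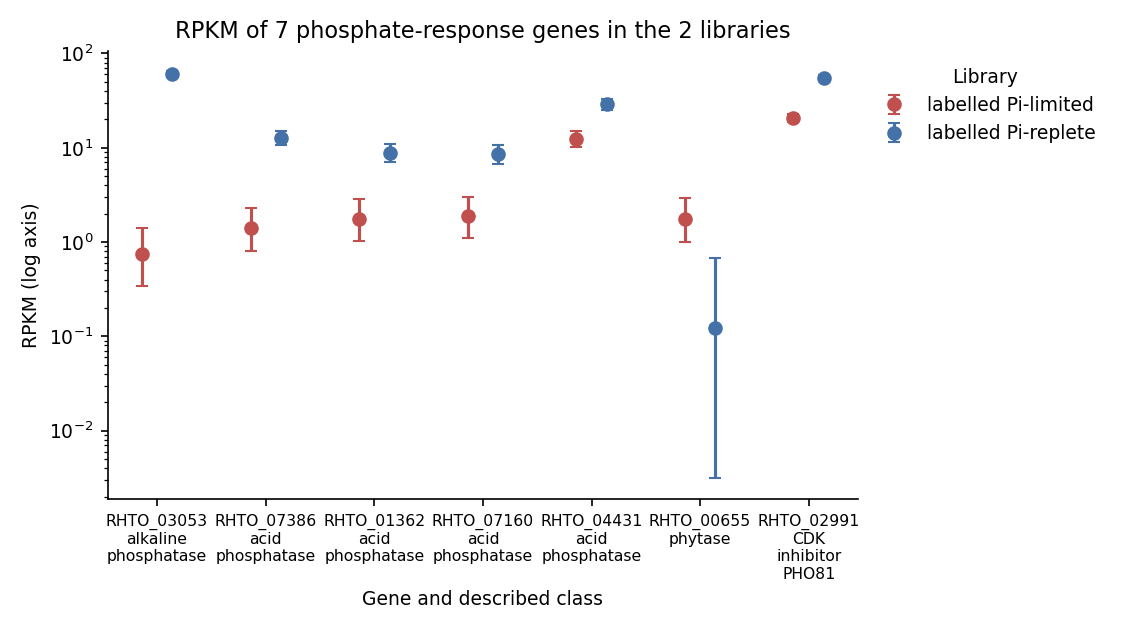
RPKM on a log axis of the 7 genes, named with their described class on the horizontal axis, in the Pi-limited-labelled library (red) and the Pi-replete-labelled library (blue); points are single libraries and bars are exact Poisson 95% intervals of the count. The red point lies under the blue one for 6 genes, from 0.751 against 60.3 RPKM for RHTO_03053 to 12.5 against 28.8 RPKM for RHTO_04431, and above it for the phytase RHTO_00655 (1.77 against 0.123 RPKM).

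The phytase, RHTO_00655, which KEGG also describes as an acid phosphatase, was the only one of the 7 genes that was higher in the Pi-limited-labelled library. It had 15 counts in the Pi-limited-labelled library and 1 count in the Pi-replete-labelled library, or 1.77 RPKM (0.989 to 2.92) and 0.123 RPKM (0.0031 to 0.686). The ratio was 14.4-fold higher with an interval from 2.21 to 605, so that its size is not resolved at this depth. Its p-value of 3.80e-04 and FDR of 8.62e-04 in the authors' deposited table were the largest of the 7 genes and lay just inside the largest FDR the table holds, and that p-value compares these 2 libraries, not the conditions. Its best hit in the authors' deposited annotation was a phytase of the basidiomycete Stereum hirsutum. The transcript was scarce in both libraries, at place 1282 of 1402 by RPKM in the Pi-limited-labelled library and at place 1398 in the Pi-replete-labelled library.

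The regulator PHO81 (RHTO_02991) was the best counted of the 7 genes and had a small ratio with a narrow counting interval. It had 418 counts, or 20.8 RPKM (18.8 to 22.9), in the Pi-limited-labelled library, against 1060 counts, or 55.04 RPKM (51.8 to 58.5), in the Pi-replete-labelled library. This is 2.65-fold lower (2.36 to 2.97), a log2 ratio of -1.41 (-1.57 to -1.24). The interval does not cover the choice of scaling. With equal totals over the listed genes the log2 ratio would be -1.10. Centred on the median log2 ratio of the listed genes it would be -2.50, and both values lie outside the interval. The RPKM of PHO81 in the Pi-limited-labelled library was close to the median of the listed genes there (21.3 RPKM). In the Pi-replete-labelled library it was above the median (17.3 RPKM). Its level in the Pi-replete-labelled library was near that of the alkaline phosphatase, with 55.04 and 60.3 RPKM, whereas in the Pi-limited-labelled library the levels were 20.8 RPKM for PHO81 and 0.751 RPKM for the alkaline phosphatase.

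Among the 7 genes, 4 were at least 4-fold lower in the Pi-limited-labelled library (RHTO_03053, RHTO_07386, RHTO_01362 and RHTO_07160), a difference that 19.8% of all listed genes showed, and 1, the phytase, was at least 4-fold higher, which 14.1% of all listed genes were. Their median log2 ratio was -2.18, against a median of 1.10 over all listed genes. Both are descriptions of 2 libraries. With more listed genes higher than lower, the table's 2-fold limit holds the median over all listed genes above 1. Part of the gap between the 2 medians therefore follows from that limit and from the split by direction. For each of the 21 pairs of genes the fold difference of one was divided by that of the other, with an exact conditional interval that covers counting error only and is not adjusted for the number of pairs. For 16 of these pairs the interval left out 1. They include every pair with the phytase, which its opposite direction and the table's 2-fold limit already set apart. The same share over pairs of other listed genes was not computed. The alkaline phosphatase differed in this way from all of the other genes. Its nearest was the acid phosphatase RHTO_07386, from which it differed by a factor of 8.88 (3.61 to 23.3). The pairs among RHTO_07386, RHTO_01362 and RHTO_07160 had intervals that held 1, as for RHTO_07386 against RHTO_01362 with a factor of 1.81 (0.809 to 4.05). These counts therefore do not set the ratios of these 3 acid phosphatases in order, and the intervals allow factors of up to 4.45. The fourth, RHTO_04431, had a smaller fold difference than each of them, by a factor of 3.90 (2.18 to 7.37) from RHTO_07386, 2.16 (1.20 to 4.08) from RHTO_01362 and 1.97 (1.09 to 3.74) from RHTO_07160. Its ratio and that of PHO81 differed by a factor of 1.15, with an interval (0.882 to 1.49) that held 1. For RHTO_07160 against PHO81 the factor was 1.72 (0.988 to 3.14).

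**Figure D2:**
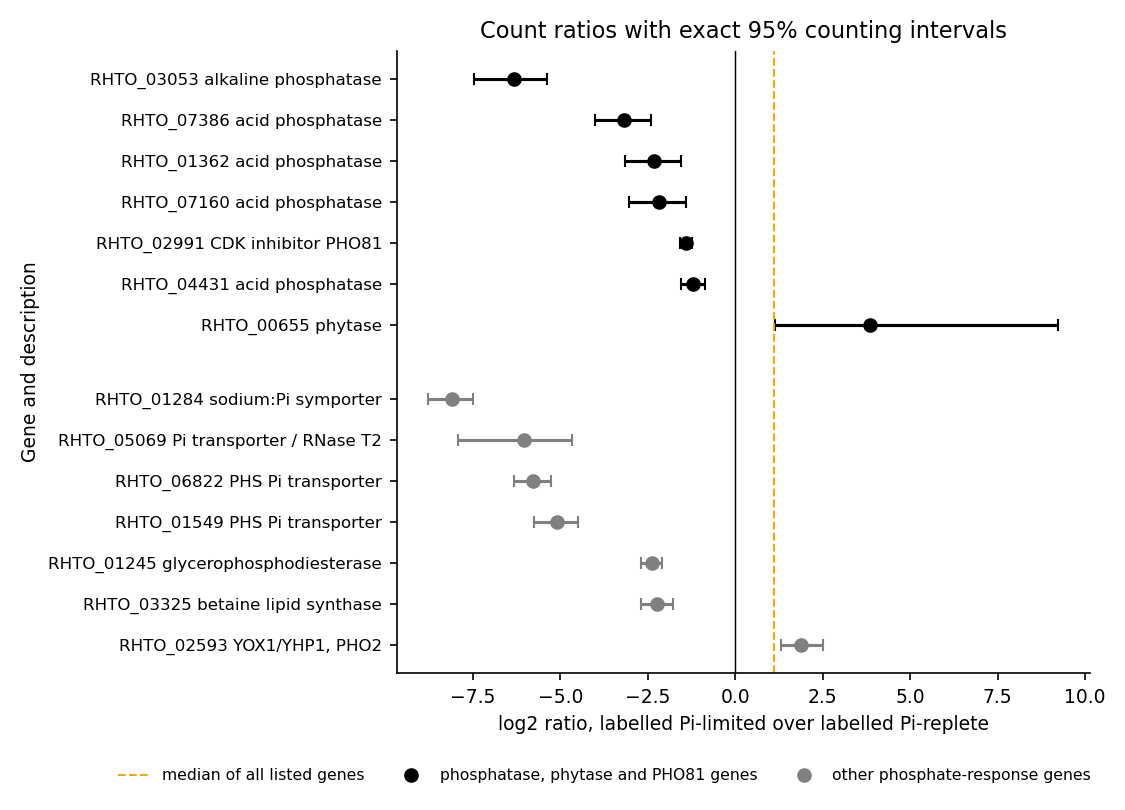
The log2 ratio of counts per library total, labelled Pi-limited over labelled Pi-replete, with exact 95% counting intervals, for the 7 genes (black) and 7 other phosphate-response genes (grey), and the median of all listed genes (dashed line at 1.10). Black points run from -6.33 (RHTO_03053) to -1.20 (RHTO_04431) on the left of 0, with the phytase at 3.84 and a wide interval on the right, and 6 of the 7 grey points also lie on the left.

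With these unequal ratios, the make-up of the summed transcripts of the listed phosphatase and phytase genes differed between the libraries. The table holds only genes that differed at least 2-fold, so any phosphatase gene that changed less is missing from these sums and shares. The 6 phosphatase and phytase genes summed to 20.1 RPKM in the Pi-limited-labelled library and 119 RPKM in the Pi-replete-labelled library. In counts this was 181 against 1222, or 30.7 CPM (counts scaled to the library total, 26.4 to 35.5) against 216.6 CPM (205 to 229), 7.05-fold lower (6.03 to 8.29) in the Pi-limited-labelled library. The alkaline phosphatase made up 3.74% of the summed RPKM in the Pi-limited-labelled library and 50.5% in the Pi-replete-labelled library. The acid phosphatase RHTO_04431, which has the smallest ratio, made up 62.2% of the sum in the Pi-limited-labelled library and 24.1% in the Pi-replete-labelled library. The 4 acid phosphatases together held 87.5% of the sum in the Pi-limited-labelled library and 49.4% in the Pi-replete-labelled library. Among these 4 alone, RHTO_04431 accounted for 71.1% of their summed RPKM in the Pi-limited-labelled library and 48.8% in the Pi-replete-labelled library. RHTO_07386 accounted for 8.10% of it in the Pi-limited-labelled library and 21.7% in the Pi-replete-labelled library. The phytase held 8.80% of the sum in the Pi-limited-labelled library and 0.103% in the Pi-replete-labelled library, shares that rest on 15 counts and 1 count. The alkaline phosphatase's share of 3.74% rests on 9 counts. No intervals were computed for the shares.

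**Figure D3:**
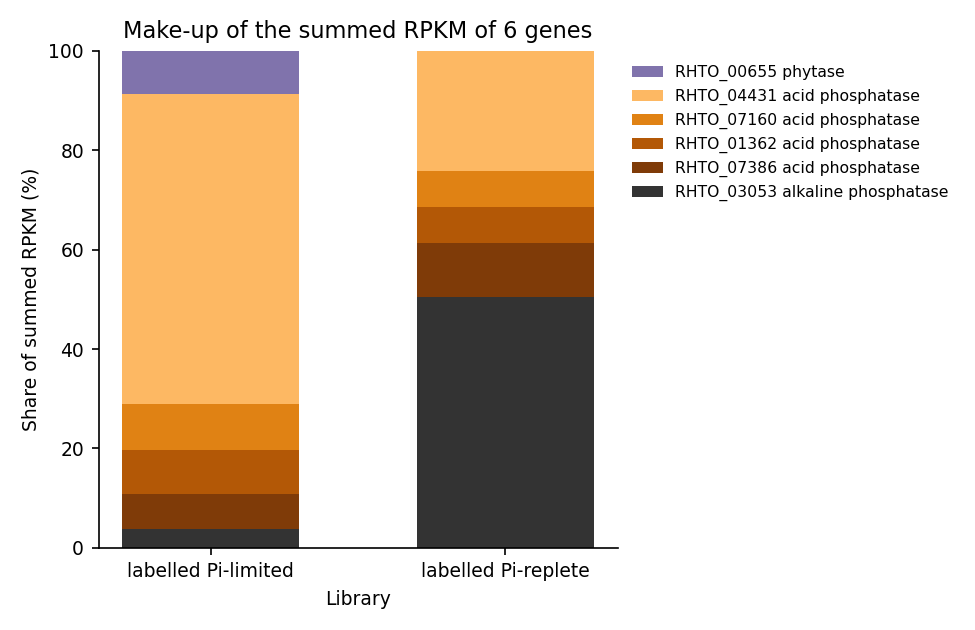
Share of the summed RPKM of the 6 phosphatase and phytase genes (percent) in the Pi-limited-labelled library (left bar) and the Pi-replete-labelled library (right bar), each of 1 library. The shares have no intervals. The acid phosphatase RHTO_04431 fills 62.2% of the left bar and 24.1% of the right bar, and the alkaline phosphatase RHTO_03053 fills 3.74% of the left bar and 50.5% of the right bar.

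The other listed genes of the phosphate response were found by wording in the BLAST and KEGG descriptions, and 7 matched. Of these, 6 were lower and 1 was higher in the Pi-limited-labelled library, beside 41.7% lower over all listed genes, with a median log2 ratio of -5.09. The alkaline phosphatase lay within the range of the transporters. The sodium:Pi symporter RHTO_01284 was 275-fold lower (182 to 440), the gene described as a phosphate transporter and a T2 ribonuclease, RHTO_05069, was 65.5-fold lower (25.3 to 242), and the Pi:proton symporters RHTO_06822 and RHTO_01549 were 54.6-fold (38.3 to 80.6) and 34.1-fold lower (22.5 to 54.1). The acid phosphatases RHTO_01362 and RHTO_07160, at 4.98-fold and 4.55-fold lower, lay beside a pair of lipid genes: the glycerophosphodiester phosphodiesterase RHTO_01245, which breaks down deacylated phospholipids, was 5.22-fold lower (4.28 to 6.43), and RHTO_03325, a betaine lipid synthase whose product is a phosphorus-free membrane lipid, was 4.70-fold lower (3.45 to 6.52). The match with the other direction was RHTO_02593, which KEGG describes both as the homeobox protein YOX1/YHP1, a cell cycle repressor in S. cerevisiae, and as the regulatory protein PHO2. It had 119 counts, or 11.2 RPKM, in the Pi-limited-labelled library and 31 counts, or 3.04 RPKM, in the Pi-replete-labelled library, and was 3.68-fold higher (2.46 to 5.65). Its descriptions name both proteins without choosing between them, and its best hit is an unnamed protein of the rust fungus Puccinia graminis. PHO81 and this gene had opposite directions. After centring on the median of all listed genes the log2 ratio of RHTO_02593 was 0.78 and it was no longer 2-fold higher. That median, 1.10, lies at the inner edge of the higher genes, since no listed gene has a ratio near 0. Centring on it therefore lowers every log2 ratio by about the table's 2-fold limit. Of the 24 wordings searched, 17 matched no listed gene other than the 7 described above, among them those for PHO85, PHO80, PHO4, SPX domain proteins and polyphosphate synthesis, and these genes are not analysed here.

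**Figure D4:**
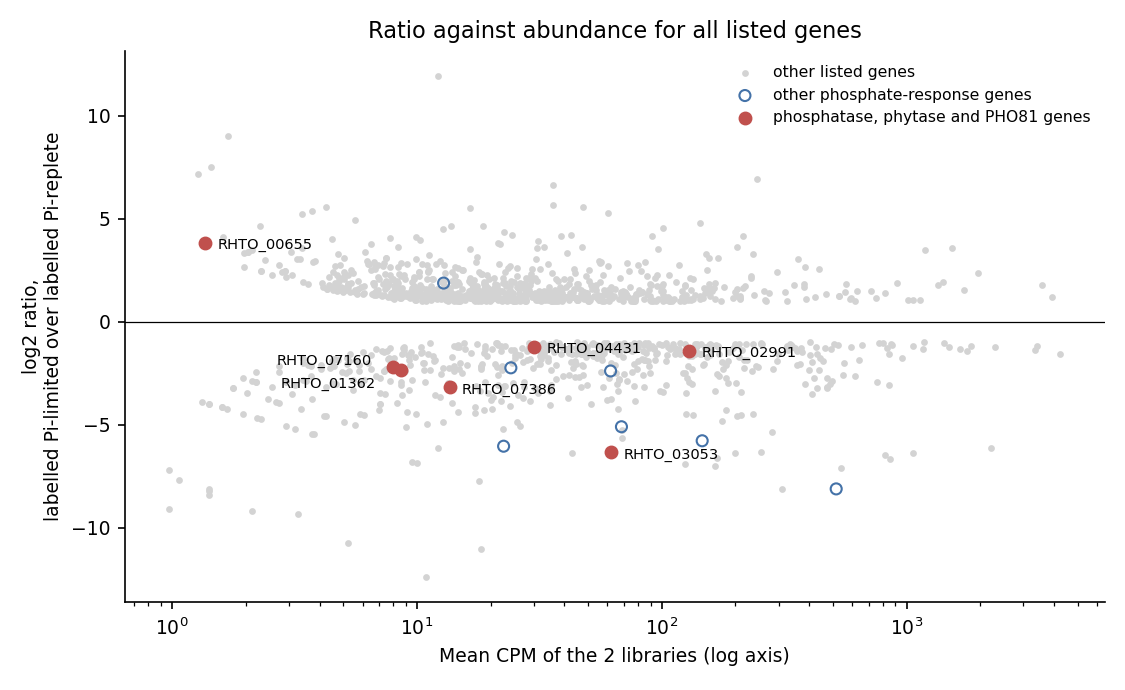
The log2 ratio, labelled Pi-limited over labelled Pi-replete, against the mean CPM of both libraries (log axis) for all 1402 listed genes, where genes with 0 counts enter at the authors' RPKM of 0.01. The empty band around 0 is the table's 2-fold limit, RHTO_03053 (red, at -6.33) lies at the lower side of the plot, open blue circles are the 7 other phosphate-response genes, and the phytase RHTO_00655 (red, at 3.84) stands at the scarce end of the table.

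The 7 genes also differed in their coding length and in the source of their annotation. The deposited lengths ran from 1440 bases for the phytase to 3414 bases for PHO81, and the alkaline phosphatase had 2034 bases. The best hit was a protein of the related yeast Rhodotorula glutinis for 4 of them (the alkaline phosphatase, RHTO_01362, RHTO_07160 and PHO81), beside 46.5% of the 1274 listed genes with a best hit. The acid phosphatase RHTO_07386 had its best hit in the ascomycete Thielavia terrestris and RHTO_04431 in the basidiomycete Tremella mesenterica. For PHO81 the best hit was itself described as a cyclin-dependent kinase inhibitor, whereas those of the alkaline phosphatase and of all 4 acid phosphatases were hypothetical proteins, so that the class of these 5 genes rests on the KEGG description alone. Whether any of the acid phosphatases share reads was not tested.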

How the data were processed

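RNA sequencing of 1 library per condition was analysed from 1 table of 1402 genes. Per the file headers, the authors deposited a raw count per gene and library, the RPKM, the log2 ratio of RPKM, a p-value with its FDR, the gene length, and BLAST and KEGG descriptions. Per the submitters' processing notes, Cufflinks and DESeq were used, with no role or version named. The aligner, the genome build and the strand setting of the counting step are not given in the sources used, so overlapping and antisense genes cannot be told apart.

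Library totals were recovered as count divided by length and RPKM. The deposited ratio, of the Pi-replete-labelled library over the Pi-limited-labelled library, was turned round. Fold differences are counts per library total with exact 95% intervals from the conditional binomial (Clopper-Pearson, SciPy 1.17.1), tested on simulated data. Levels have exact Poisson intervals. Without molecular identifiers these cover counting error only. At this depth 3 counts, a fixed limit set for a count of 0 and not taken from the Poisson intervals, equal 0.509 CPM in the Pi-limited-labelled library and 0.532 CPM in the Pi-replete-labelled library. Gene lengths are coding lengths, since 99.4% were multiples of 3. The NP11 strain gene table (assembly RHOziaDV1.0) held all 7 identifiers and was used for gene order only.

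The 7 genes and the lists were chosen with earlier results of these data known. The named genes were the 7 genes, every match of the phosphate-response list, the listed neighbours of the 7 genes, and the 3 other phosphatases in each direction with the most extreme log2 ratios among those reaching 50 counts in either library. Alternatives were other scalings, a pseudocount of 1, a minimum of 50 counts, an FDR of at most 1e-10, Wilson intervals and leaving out the gene with 2 enzyme classes.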

Additional observations from a re-analysis of the deposited data

How the results depend on the processing

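All 7 genes kept their direction under the other scalings, the pseudocounts and the count minimum wherever they were still included. Centring every log2 ratio on the median over the table shifted it by -1.10 and equal totals over the listed genes shifted it by 0.31. The median lies just above the table's 2-fold limit, so centring takes barely 2-fold higher genes to about 0 by construction. With centring, the median log2 ratio of the 7 genes was -3.28 and that of the phosphate-response genes -6.19, of which 0 were then at least 2-fold higher. With equal totals, 5 of the 7 genes were at least 2-fold lower in the Pi-limited-labelled library, with RHTO_04431 at -0.89, and 3 of the other phosphatases were, a check chosen after seeing the data. The minimum of 50 counts, the FDR of at most 1e-10 and leaving out the gene with 2 enzyme classes each removed the phytase, and the FDR limit also removed RHTO_07160, leaving 6, 5 and 6 genes, all lower in the Pi-limited-labelled library. Over all scalings and pseudocounts the log2 ratio ran from -7.43 to -5.13 for RHTO_03053 and from 1.30 to 4.15 for the phytase, whose 1 count in the Pi-replete-labelled library limits its size. With a Wilson interval the phytase's log2 ratio ranged from 1.28 to 6.41, against 1.14 to 9.24 with the exact one. No paired analysis was possible because each condition has 1 library, and leaving out a replicate was not possible for the same reason.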

Other observations

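Of 16 further listed genes whose description holds the word phosphatase, triphosphatases included, 6 were lower and 10 were higher in the Pi-limited-labelled library. That is 37.5% lower, near the 41.7% over all listed genes. Their median log2 ratio was 1.10. The table's 2-fold limit keeps the median of any list with more genes higher than lower above 1, so this value adds little to the split. At least 2-fold, the split was 6 lower and 3 higher after centring on that median, and 3 lower and 10 higher with equal totals. The largest ratios in the lower direction were those of an ADP-ribose pyrophosphatase (RHTO_05022, 5.74-fold, 4.73 to 7.01), a phosphoprotein phosphatase (RHTO_02435, 2.90-fold, 2.09 to 4.10) and an inosine triphosphate pyrophosphatase (RHTO_07202, 2.56-fold, 2.27 to 2.89), which removes deaminated purine nucleotides. In the higher direction they were those of a capsule biosynthesis phosphatase (RHTO_07631, 91 counts in the Pi-limited-labelled library and 7 in the Pi-replete-labelled library, 12.4-fold, 5.80 to 31.8), a gene described as an activator of protein phosphatase 2A and as a peptidylprolyl isomerase (RHTO_04183, 5.94-fold, 4.37 to 8.24) and RHTO_05023, another ADP-ribose pyrophosphatase, at 5.63-fold (3.70 to 8.90). The pair of ADP-ribose pyrophosphatases shared a best hit, had consecutive identifiers and had opposite directions. Whether they are separate genes or share reads was not tested.

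In the gene order of strain NP11, the 7 genes had 12 immediate neighbours, of which 4 were in the deposited table. That gene table names no scaffolds, so a scaffold was taken to end where gene starts fall back to a lower position, and by this rule RHTO_07386 had no neighbour. The gene after the alkaline phosphatase, an arylamine N-acetyltransferase (RHTO_03054), had 199 counts in the Pi-limited-labelled library and 449 in the Pi-replete-labelled library, 2.36-fold lower (1.99 to 2.80). The acid phosphatase RHTO_01362 lay between a gene of unknown function that was 3.94-fold lower (RHTO_01361, 2.94 to 5.36) and the small subunit of transcription factor TFIIA, which was 2.10-fold higher (RHTO_01363, 1.74 to 2.54). After centring, which takes barely 2-fold higher genes to about 0, the log2 ratio of RHTO_01363 was -0.03. The gene after RHTO_07160, a multicopper oxidase (RHTO_07161), had 14 and 45 counts in the libraries labelled Pi-limited and Pi-replete and was 3.36-fold lower (1.81 to 6.62). PHO81 and the alkaline phosphatase lay in 1 run of the gene table with 61 genes between them, of which 4 were in the deposited table. No test of position was made.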
